A study of Arabidopsis thaliana with 8 samples.

Results

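The 10 genes described here are the photoreceptor genes PHYA and PHYB, the 5 phytochrome-interacting factor genes PIF1, PIF3, PIF4, PIF5 and PIF7, and the 3 shade marker genes HFR1, PIL1 and ATHB2 of Arabidopsis thaliana. They were chosen by gene identifier, with no measured value in the rule but with earlier results of these data known. Of these genes, 10 of 10 were found among the 32833 genes of the deposited table. Transcripts had been sequenced in 8 libraries of whole seedlings. Of these, 2 came from rli2 RNAi #5 (line 5), 3 from rli2 RNAi #12 (line 12) and 3 from wild type Col-0 (WT). RLI2, listed in the table as ABCE2, encodes an ATP-binding cassette protein known for splitting ribosomes after translation. The RNAi lines carry an RNA interference construct against it, and the labels name no other allele. Seedlings of the 3 groups had been kept for 3 days at 4 °C and then grown for 7 days at 22 °C on Murashige and Skoog plates, under days of 16 h of light and nights of 8 h. No source used here gives the promoter of the construct, the hour of harvest, how the lines were selected, or whether libraries came from separate plates or plants. The p-values therefore measure a spread that may be technical.

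Phytochromes are red and far-red light receptors that switch between an inactive form and an active form which enters the nucleus. Active phytochrome binds PIFs, basic helix-loop-helix transcription factors that promote stem elongation, and leads to their phosphorylation and, for many of them, breakdown. Under a leaf canopy, far-red light inactivates PHYB, PIFs act, and genes such as ATHB2, PIL1 and HFR1 are induced. HFR1 is a helix-loop-helix protein that binds PIFs and limits the response.

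The libraries held an implied 42280000 to 49010000 reads each, and 18218 to 18565 genes reached 1 FPKM (fragments per kilobase of transcript, scaled to the mapped reads of a library). ABCE2 had 25.0 and 26.4 FPKM in line 5, 26.7, 26.4 and 23.3 FPKM in line 12, and 57.5, 57.8 and 58.6 FPKM in WT. Its log2 difference from WT, on FPKM + 1 as for every log2 value here, was -1.14 in line 5 (limma adjusted p = 1.77e-05) and -1.16 in line 12 (limma adjusted p = 6.98e-06). The share of ribosomal RNA genes in summed reads was 0.468% and 2.18% in line 5, 0.161%, 2.34% and 7.60% in line 12, and 0.192% to 0.412% in WT. Without the 3 libraries above 2%, each RNAi line keeps 1 library, which is then assumed to vary like WT. Summed over 5 green tissue markers, the level was 27372 and 28393 FPKM in line 5, 21687 to 23649 FPKM in line 12, and 26638 to 27805 FPKM in WT. Of these 5, RCA, RBCS1A, CA1 and LHCB2.1 fell in both lines together, by 0.29 to 0.49 on the log2 scale, and CAB1 was higher (0.30, limma adjusted p = 0.0113). The CAB1 call was lost without WT replicate 1 (limma adjusted p = 0.0511). That of CA1 was lost without WT replicate 1 (limma adjusted p = 0.0562) or WT replicate 3 (0.0573). With no filter on low values, 2 of the 5 were called lower, and CAB1 was not called (limma adjusted p = 0.355). In line 5 alone, CA1 and LHCB2.1 were not called (limma adjusted p = 0.139 and 0.172). CAB1, a light-harvesting protein gene listed as LHCB1.3, had 12765 and 12889 FPKM in line 5, 9731 to 11185 FPKM in line 12, and 9174 to 9689 FPKM in WT. Summed over 9 root markers without the abundant PYK10, it was 10.14 and 18.34 FPKM in line 5, 43.8, 9.71 and 42.3 FPKM in line 12, and 50.8, 68.6 and 38.7 FPKM in WT. No root marker was at 0. Of 9 tested root markers, 6 were lower and 1 was higher in both lines together than in WT, where 28.1% of tested genes were lower and 28.1% higher. Among the lower ones, COBL9 reached 1 FPKM only in WT, so it was tested only through the group where it was high. The higher one, MYB36, a transcription factor of the endodermis singled out after its values were seen, differed by 0.45 (limma adjusted p = 0.0186), a call lost without line 5 replicate 2 (0.051) or WT replicate 1 (0.061). The lower count was 2 without line 5 replicate 1, 2 without WT replicate 1 and 1 without WT replicate 2. In whole seedlings, fewer cells of a type and less RNA per cell cannot be told apart. The part of root content, ribosomal RNA content and hour of harvest in the values below was not tested, except where a value without a library is given.

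PIFs bind the hexamer CACGTG (G-box), which reads the same on both strands, and the PBE-box, CACATG on one strand and CATGTG on the other. The windows shown hold the G-boxes upstream of the shade markers HFR1 and PIL1 and of the 2 genes with a G-box within 250 bases of their start, PHYB and PIF5. They are from TAIR10.1, whose gene starts and ends match the deposited table for these 10 genes, and no annotated gene overlaps them. Each is written along the gene's own strand with 20 bases on either side, and capitals mark the G-boxes.
PHYB, chr2:8138506-8138551, + strand: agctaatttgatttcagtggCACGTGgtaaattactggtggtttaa
PHYB, chr2:8139590-8139670, + strand: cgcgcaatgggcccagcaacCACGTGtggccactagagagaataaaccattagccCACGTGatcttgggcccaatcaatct
PIF5, chr3:21830977-21831022, - strand: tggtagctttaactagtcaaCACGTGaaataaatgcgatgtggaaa
HFR1, chr1:469274-469319, - strand: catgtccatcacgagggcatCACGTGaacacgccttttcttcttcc
HFR1, chr1:468855-468900, - strand: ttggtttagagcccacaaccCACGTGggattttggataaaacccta
PIL1, chr2:19298926-19299100, - strand: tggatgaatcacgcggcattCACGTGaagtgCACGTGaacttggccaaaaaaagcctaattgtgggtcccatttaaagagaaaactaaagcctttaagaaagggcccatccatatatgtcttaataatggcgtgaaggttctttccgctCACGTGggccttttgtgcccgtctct
The PIL1 window holds 3 G-boxes at 1222, 1211 and 1093 bases before the gene's start. HFR1 has 2, at 1419 and 1000 bases. PHYB has G-boxes at 1230, 146 and 111 bases, and PIF5 has 1 at 165 bases. Within 250 bases, 2 of the 10 genes had a G-box, against 6.48% of 27419 gene starts. Within 1000 bases 3 of 10 had one, against 14.8% of the starts, and within 3000 bases 8 of 10, against 31.7% of 27416 starts. For the PBE-box the counts were 0, 4 and 7 of 10, against 11.1%, 37.7% and 75.3% of starts. No G-box match overlapped a PBE-box match, while a pair of PBE-box matches upstream of PIF3 overlapped each other. Within 3000 bases PHYA had no G-box, and PIF1 had neither motif. These matches are descriptions of sequence, not measured binding sites.

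PHYA, PIF4 and ATHB2 rose and PIF1 and PIF7 fell in both lines, while PIF3, PIF5 and HFR1 changed in line 5 and differed between the lines. The calls of PIF1 in each line and of PIF4 in line 12 depended on single libraries, as given below. PIL1 stayed below the filter of 1 FPKM in 2 libraries, so 9 of the 10 were tested. In line 5 against WT, 8 of 9 passed limma's test at an adjusted p of 0.05, 5 higher and 3 lower, where 44.6% of 19395 tested genes passed. Line 12 against WT gave 5 of 9, 3 higher and 2 lower, where 56% of tested genes passed. The mean of both lines against WT gave 7 of 9, with PHYA, PIF4, HFR1 and ATHB2 higher and PIF1, PIF3 and PIF7 lower, where 56.1% passed. In it HFR1 lost its call without line 5 replicate 1 (limma adjusted p = 0.06), WT replicate 1 (0.0656) or WT replicate 2 (0.0531), and PIF3 without WT replicate 1 (0.0683). Between line 12 and line 5 the count was 5 of 9, with 1 higher and 4 lower in line 12, where 19% passed. That last count was 2 without the 3 libraries above 2% ribosomal RNA. The median log2 difference of the 9 genes was 0.267 in line 5 against WT, -0.128 in line 12 against WT, 0.07 for both lines against WT and 0.014 for line 12 against line 5. Over all tested genes the same 4 medians were -0.009, -0.002, -0.006 and -0.008.

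**Figure D1:**
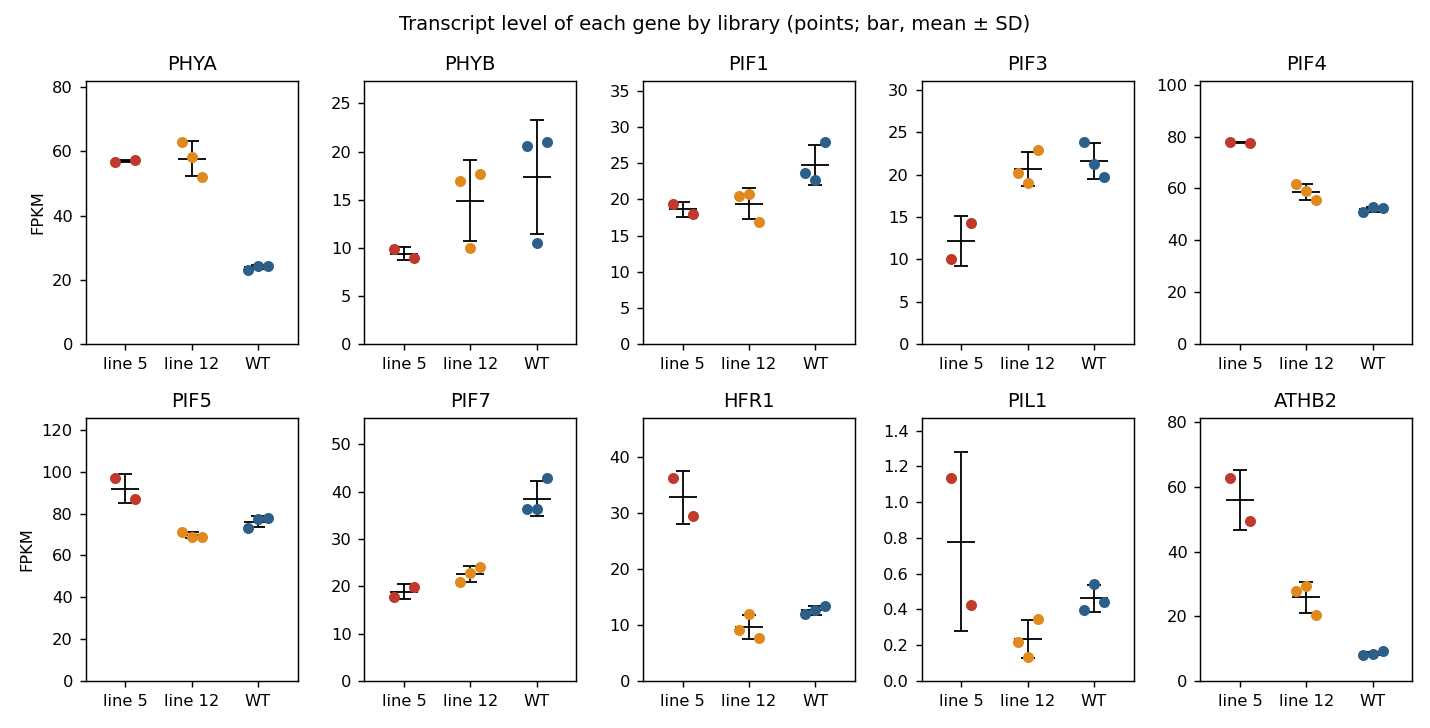
FPKM of the 10 genes in each library of line 5, line 12 and WT. Points are libraries and bars the mean ± SD (n = 2, 3 and 3). PHYA stood at 52.0 to 63.0 FPKM in the RNAi libraries and at 23.2 to 24.4 FPKM in WT, while HFR1 was high in line 5 alone among the 3 groups.

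PHYA (AT1G09570, chr1:3095160-3100819, minus strand) encodes the light-labile phytochrome that detects far-red light and very weak light. It had 56.7 and 57.3 FPKM in line 5, 63.0, 58.2 and 52.0 FPKM in line 12, and 23.2, 24.4 and 24.4 FPKM in WT. Every RNAi library was above every WT library. The mean was 57.0 ± 0.432 FPKM in line 5 (SD, n = 2), 57.7 ± 5.53 FPKM in line 12 (SD, n = 3) and 24.0 ± 0.679 FPKM in WT (SD, n = 3). PHYA rose in line 5 by 1.22 on the log2 scale (SE 0.0802, limma adjusted p = 2.54e-05) and in line 12 by 1.23 (SE 0.0717, limma adjusted p = 9.98e-06). The difference between the lines was 0.01 with a 95% interval from -0.17 to 0.20 (limma adjusted p = 0.929).

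PHYB (AT2G18790, chr2:8139756-8144461, plus strand) encodes the light-stable phytochrome that dominates red light and shade sensing in green seedlings. It had 9.889 and 8.908 FPKM in line 5, 16.99, 10.02 and 17.72 FPKM in line 12, and 20.52, 10.55 and 21.01 FPKM in WT. The 2 line 5 libraries, line 12 replicate 2 and WT replicate 2 were low, so line 12 and WT overlapped. The log2 difference from WT was -0.76 in line 5 (SE 0.321, limma adjusted p = 0.0884) and -0.19 in line 12 (SE 0.287, limma adjusted p = 0.604), and neither passed. Without WT replicate 2 the line 5 value was -1.07 and passed (limma adjusted p = 0.0154). The same held for both lines together, at -0.48 with all libraries (limma adjusted p = 0.153) and -0.78 without WT replicate 2 (limma adjusted p = 0.0198). Of the 4 low libraries, the 3 RNAi ones also had the lowest root marker sums without PYK10, while WT replicate 2 had the highest.

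The ratio of PHYA to PHYB levels, both per length, was 5.73 and 6.43 in line 5, 3.71, 5.81 and 2.93 in line 12, and 1.13, 2.31 and 1.16 in WT. The RNAi libraries were above the WT libraries, and WT replicate 2 was closest to them. Of the other phytochrome genes, PHYC had 10.03 and 10.03 FPKM in line 5, 11.14, 10.12 and 10.9 FPKM in line 12, and 11.24, 9.93 and 10.6 FPKM in WT. PHYD stood at 3.39 to 3.98 FPKM in the 8 libraries. PHYE had 10.4 and 10.7 FPKM in line 5, 12.2 to 13.5 FPKM in line 12 and 10.4 to 11.3 FPKM in WT. PHYC, PHYD and PHYE did not pass the test for both lines together. PHYE passed in line 12 against WT (0.24, limma adjusted p = 0.0119), a call lost without the libraries above 2% ribosomal RNA (0.30, limma adjusted p = 0.058), and in line 12 against line 5 (0.27, limma adjusted p = 0.031), a call lost in 5 of the 8 settings that left out a library.

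PIF4, PIF5 and PIF7 are the PIFs best known for shade and temperature growth responses, and they parted here. PIF7 (AT5G61270, listed as BHLH72, chr5:24638491-24640765, minus strand) had 17.8 and 19.9 FPKM in line 5, 20.9, 22.7 and 24.2 FPKM in line 12, and 36.3, 36.4 and 42.8 FPKM in WT. Its RNAi libraries were below its WT libraries, and it fell by 0.99 on the log2 scale in line 5 (SE 0.0971, limma adjusted p = 0.000161) and by 0.74 in line 12 (SE 0.0868, limma adjusted p = 0.000253). An opposite-strand gene, AT5G61260, overlaps PIF7 and had 0.545 to 1.22 FPKM. PIF4 (AT2G43010, chr2:17886101-17889087, plus strand) had 78.0 and 77.7 FPKM in line 5, 61.7, 59.1 and 55.6 FPKM in line 12, and 51.0, 52.8 and 52.4 FPKM in WT. The 3 groups of PIF4 libraries did not overlap, with line 5 highest. PIF4 rose in line 5 by 0.57 (SE 0.0574, limma adjusted p = 0.00018) and in line 12 by 0.17 (SE 0.0513, limma adjusted p = 0.0225). The line 12 call was lost without line 12 replicate 1 (0.14, limma adjusted p = 0.0668), without line 12 replicate 2 (0.17, limma adjusted p = 0.0571), without WT replicate 1 (0.16, limma adjusted p = 0.0735) with values centred on the library median (0.12, limma adjusted p = 0.0794) and without the libraries above 2% ribosomal RNA (0.24, limma adjusted p = 0.0508).

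PIF5 (AT3G59060, chr3:21827905-21830837, minus strand) was the most abundant of the 10 genes in each group. It had 96.8 and 87.1 FPKM in line 5, 71.4, 68.8 and 68.7 FPKM in line 12, and 73.3, 77.5 and 77.8 FPKM in WT. Line 5 was above WT and line 12 below it, with no overlap. PIF5 rose in line 5 by 0.27 (SE 0.0618, limma adjusted p = 0.00996), a call lost without line 5 replicate 1 (0.19, limma adjusted p = 0.0823). Its difference in line 12 was -0.13 and did not pass (limma adjusted p = 0.0827), though it did with values centred on the library median (-0.18, limma adjusted p = 0.0315).

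PIF1 and PIF3 are best known from dark-grown seedlings, and PIF1 also holds back the germination of seeds in the dark. PIF3 (AT1G09530, chr1:3075768-3079654, plus strand) had 10.08 and 14.3 FPKM in line 5, 20.1, 19.0 and 22.9 FPKM in line 12, and 23.9, 21.2 and 19.8 FPKM in WT. Line 5 was low, and line 12 overlapped WT. PIF3 fell in line 5 by 0.79 on the log2 scale (SE 0.147, limma adjusted p = 0.00372), while its difference in line 12 was -0.06 (limma adjusted p = 0.716). PIF1 (AT2G20180, chr2:8704024-8707009, minus strand) had 19.4 and 17.9 FPKM in line 5, 20.5, 20.8 and 16.9 FPKM in line 12, and 23.6, 22.7 and 28.0 FPKM in WT. Its 5 RNAi libraries were below its 3 WT libraries. PIF1 fell in line 5 by 0.39 (SE 0.116, limma adjusted p = 0.0283) and in line 12 by 0.34 (SE 0.103, limma adjusted p = 0.0247). The line 5 call was lost without line 5 replicate 1 (limma adjusted p = 0.0747), line 5 replicate 2 (0.137) or WT replicate 3 (0.0655). The line 12 call was lost without line 12 replicate 3 (limma adjusted p = 0.0699) or WT replicate 3 (0.0727). Without the libraries above 2% ribosomal RNA, PIF1 passed in neither line (limma adjusted p = 0.116 in line 5 and 0.192 in line 12). The opposite-strand gene AT2G20170, which overlaps PIF1, had at most 0.0264 FPKM.

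**Figure D2:**
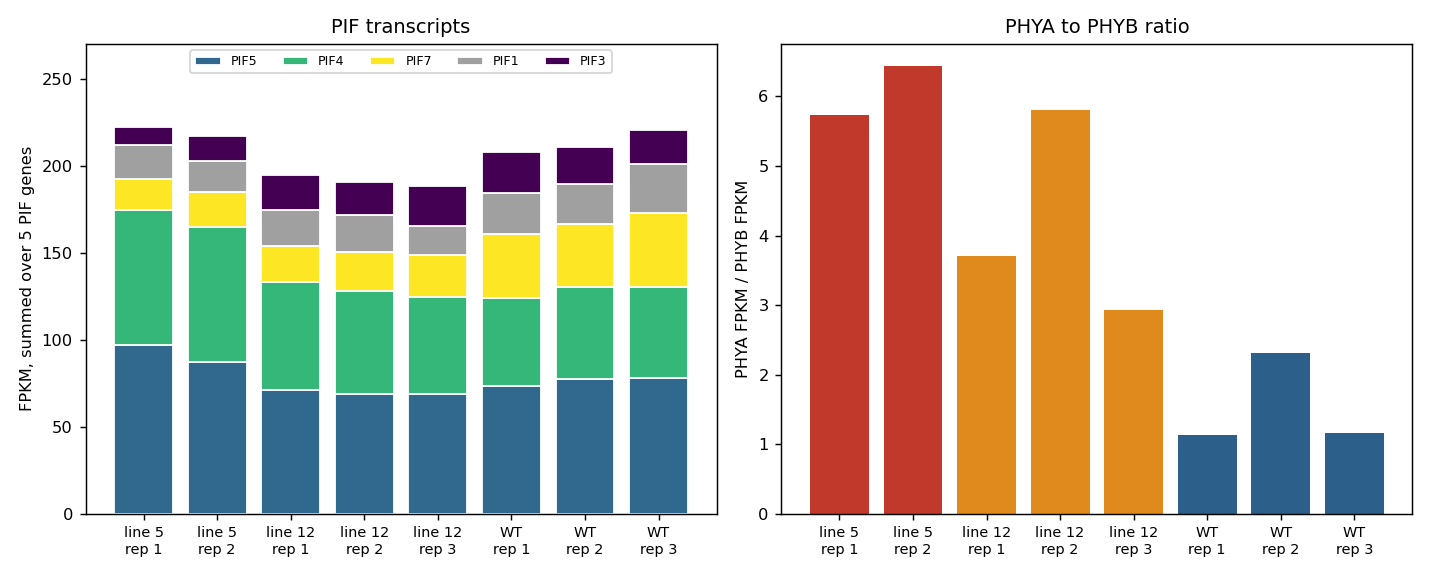
Left, FPKM of PIF5, PIF4, PIF7, PIF1 and PIF3 stacked per library. Right, PHYA FPKM divided by PHYB FPKM per library. The stacks total 188.3 to 222.1 FPKM, with PIF7 at 8.02% to 12.8% of the RNAi stacks and 17.3% to 19.4% of the WT stacks, and the ratio is 2.93 to 6.43 in RNAi libraries and 1.13 to 2.31 in WT.

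Summed over the 5 PIF genes, the level was 222.1 and 217 FPKM in line 5, 194.7, 190.4 and 188.3 FPKM in line 12, and 208.1, 210.7 and 220.7 FPKM in WT. Line 12 was below WT, and line 5 overlapped it. PIF4 and PIF5 made up 78.7% and 76.0% of that sum in line 5, 66.0% to 68.4% in line 12, and 59.0% to 61.9% in WT. PIF7 made up 8.02% and 9.19% of it in line 5, 10.7% to 12.8% in line 12, and 17.3% to 19.4% in WT. In both shares the 3 groups did not overlap, and line 12 lay between line 5 and WT. Of the other PIF genes, PIF8 had 12.3 and 17.8 FPKM in line 5, 13.7, 11.4 and 12.1 FPKM in line 12, and 30.1, 25.9 and 28.1 FPKM in WT. PIF8 fell in both lines together, with -0.996 on the log2 scale (limma adjusted p = 0.000282). PIF6, singled out after its values were seen, had 0.696 and 1.11 FPKM in line 5, 2.84, 1.75 and 3.01 FPKM in line 12, and 2.20, 2.08 and 1.78 FPKM in WT. It did not pass for both lines together (-0.23, limma adjusted p = 0.215). PIF6 fell in line 5 (-0.67, limma adjusted p = 0.0202), a call lost without line 5 replicate 1 (-0.51), WT replicate 1 (-0.63) or WT replicate 2 (-0.66), at limma adjusted p = 0.14, 0.0592 and 0.0539. Its difference in line 12 was 0.21 (limma adjusted p = 0.315), which passed without line 12 replicate 2 (0.38, limma adjusted p = 0.0464). Line 12 less line 5 was 0.88 (limma adjusted p = 0.0159), a call lost without line 5 replicate 1 (limma adjusted p = 0.0954). PIF8 was thus the only 1 of the 5 other phytochrome and PIF genes that passed for both lines together, where 56.1% of tested genes passed. The median of those 5 was -0.03.

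ATHB2 (AT4G16780, listed as HAT4, chr4:9449114-9450905, plus strand) encodes a homeodomain-leucine zipper factor that is induced within minutes by far-red-rich light. It had 62.6 and 49.4 FPKM in line 5, 27.8, 29.3 and 20.4 FPKM in line 12, and 8.09, 8.28 and 9.16 FPKM in WT. The 3 groups did not overlap, and the ratio of mean FPKM to WT was 6.58 in line 5 and 3.04 in line 12. ATHB2 rose in line 5 by 2.58 (SE 0.161, limma adjusted p = 2e-05) and in line 12 by 1.48 (SE 0.144, limma adjusted p = 9.89e-05). In each line this was the widest difference from WT among the 9 tested genes.

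HFR1 (AT1G02340, chr1:465616-467880, minus strand) had 36.1 and 29.4 FPKM in line 5, 9.05, 12.0 and 7.75 FPKM in line 12, and 11.9, 12.6 and 13.4 FPKM in WT. Line 5 was above the other libraries, and line 12 overlapped the low end of WT. HFR1 rose in line 5 by 1.31 (SE 0.163, limma adjusted p = 0.000522), while in line 12 its difference was -0.38 and did not pass (SE 0.146, limma adjusted p = 0.0558). The line 12 difference passed without line 12 replicate 2 (-0.54, limma adjusted p = 0.00642), with median centring (-0.43, limma adjusted p = 0.0378) and without the libraries above 2% ribosomal RNA (-0.44, limma adjusted p = 0.0249). ATHB2 and HFR1 were thus apart in line 12. The ratio of ATHB2 to HFR1 was 1.73 and 1.68 in line 5, 3.07, 2.45 and 2.64 in line 12, and 0.681, 0.659 and 0.684 in WT.

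PIL1 (AT2G46970, chr2:19295431-19297858, minus strand), a PIF-like protein and a classic early shade marker, was near the limit of detection. It had 1.13 and 0.424 FPKM in line 5, 0.218, 0.134 and 0.347 FPKM in line 12, and 0.399, 0.544 and 0.439 FPKM in WT. The implied reads were 82 and 30 in line 5, 17, 9 and 24 in line 12, and 30, 43 and 30 in WT. Line 5 replicate 1 was high, and line 12 was below WT. With no filter on low values, its log2 difference was 0.26 in line 5 (limma adjusted p = 0.279) and -0.25 in line 12 (limma adjusted p = 0.219), and neither passed. The scale of FPKM + 1 understates changes of genes this low, and limma was not run on PIL1 with a smaller pseudocount.

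**Figure D3:**
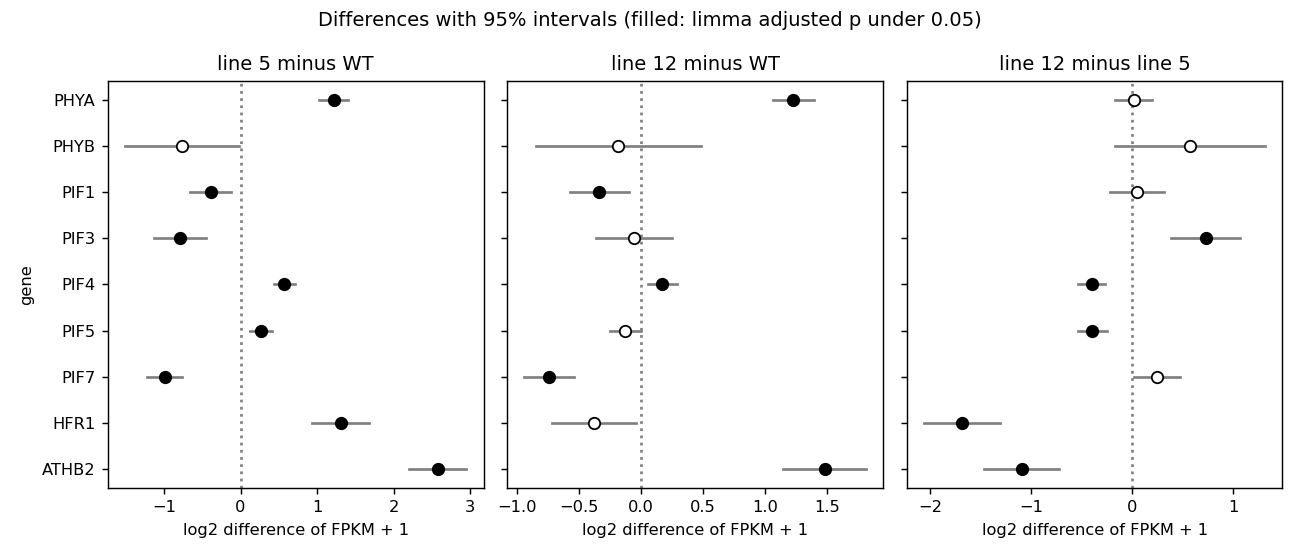
Log2 differences of FPKM + 1 for the 9 tested genes, with 95% intervals, for line 5 minus WT, line 12 minus WT and line 12 minus line 5. Filled points passed limma's test at an adjusted p of 0.05. HFR1 lies at 1.31 in line 5 and -0.38 in line 12, while PHYA lies at 1.22 and 1.23.

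The test between the lines asked which of these genes differed between 2 lines with like ABCE2 levels, whose ABCE2 difference was -0.01 (limma adjusted p = 0.919). HFR1 was lower in line 12 than in line 5 by 1.69 on the log2 scale (SE 0.163, limma adjusted p = 0.000871), and ATHB2 was lower by 1.09 (SE 0.161, limma adjusted p = 0.00401). PIF4 was lower in line 12 by 0.40 (SE 0.0574, limma adjusted p = 0.00368) and PIF5 by 0.39 (SE 0.0618, limma adjusted p = 0.00524). PIF3 was higher in line 12 by 0.73 (SE 0.147, limma adjusted p = 0.0135), a call lost without line 5 replicate 1 (0.50, limma adjusted p = 0.0643). PHYA, PHYB, PIF1 and PIF7 did not pass this test. For PIF7 the 95% interval of the difference ran from 0.02 to 0.47, and for PHYB from -0.17 to 1.32. Without the 3 libraries above 2% ribosomal RNA, HFR1 and ATHB2 still passed, while PIF3 (0.93, limma adjusted p = 0.058), PIF4 (-0.33, limma adjusted p = 0.138) and PIF5 (-0.44, limma adjusted p = 0.0927) did not.

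As single values, the 5 RNAi libraries and the 3 WT libraries did not overlap for PHYA, PIF1, PIF4, PIF7 and ATHB2, 5 of 9 tested genes, where 48.7% of tested genes did not overlap. RNAi was higher for 3 of them, against 24.1% of tested genes, and lower for 2, against 24.7%. An exact two-sided permutation test of mean FPKM gave p = 0.0179 for PHYA, PIF1 and PIF7, the smallest that 56 splits allow. The exact permutation p was 0.0536 for ATHB2, 0.0714 for PIF4 and 0.161 for PHYB. It was 0.214 for PIF3, 0.5 for HFR1, 0.786 for PIF5 and 0.982 for PIL1. This test pools 2 lines, in which HFR1 and PIF5 differed from WT with opposite signs, so it does not describe either line alone. These 10 permutation values are not adjusted for their number.

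In WT the order of levels was PIF5, PIF4, PIF7, PIF1, PHYA, PIF3, PHYB, HFR1, ATHB2 and PIL1. Neighbours from PIF1 to HFR1 overlapped in their libraries, while PIF5, PIF4, PIF7, ATHB2 and PIL1 stood apart from their neighbours. In line 5 the order was PIF5, PIF4, PHYA, ATHB2, HFR1, PIF7, PIF1, PIF3, PHYB and PIL1, and only PHYA with ATHB2 and PIF7 with PIF1 overlapped. In line 12 it was PIF5, PIF4, PHYA, ATHB2, PIF7, PIF3, PIF1, PHYB, HFR1 and PIL1, where PIF4 overlapped PHYA and the neighbours from ATHB2 to HFR1 overlapped. ATHB2 thus stood at place 9 in WT and at place 4 in both lines.

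Genes most like the 3 members with the widest range were sought among 13462 genes, by the root mean square difference of log2 values over the 8 libraries after removal of each gene's WT mean. For ATHB2 they were RAP2-13 (AT1G22190) at 0.11, KUF1 (AT1G31350) at 0.12 and PCS1 (AT5G44070) at 0.15. RAP2-13 averaged 126.9 FPKM in line 5, 64.0 FPKM in line 12 and 21.4 FPKM in WT. For HFR1 the nearest were AT1G20070 at 0.21, AT1G29670 at 0.25 and AT1G30260 at 0.26. AT1G20070 averaged 25.7 FPKM in line 5, 6.43 FPKM in line 12 and 8.93 FPKM in WT. For PHYA they were AT1G62422 at 0.07, MICU (AT4G32060) at 0.07 and AT2G27260 at 0.08, closer than those of HFR1. MICU averaged 197.0 FPKM in line 5, 187.9 FPKM in line 12 and 83.6 FPKM in WT.

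Genes that act with phytochromes moved in both directions. Of 13 partner genes, 12 were tested, and 5 rose and 2 fell in both lines together, with a median of 0.17. Over all tested genes 28.1% rose and 28.1% fell in that comparison. FHY1, which carries PHYA into the nucleus, had 10.02 and 8.46 FPKM in line 5, 10.96, 9.91 and 9.76 FPKM in line 12, and 6.16, 5.20 and 5.31 FPKM in WT. Its libraries did not overlap between RNAi and WT, and it rose by 0.71 (limma adjusted p = 0.000222). FHY3, a transcription activator of FHY1, rose by 0.39 (limma adjusted p = 0.00379), and TOPP4, a phosphatase that acts on PIF5, rose by 0.36 (limma adjusted p = 0.000698). TZP, a zinc knuckle protein found with PHYB in nuclear bodies, fell by 0.96 (limma adjusted p = 6.4e-05). TZP had 14.5 and 18.4 FPKM in line 5, 18.0 to 21.2 FPKM in line 12, and 34.2 to 36.7 FPKM in WT. PCH1, which stabilises PHYB bodies and was singled out after its values were seen, was lower than WT in line 5 (-0.57, limma adjusted p = 0.000599) but not called in line 12 (0.11, limma adjusted p = 0.199). PCHL was below the filter.

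Genes of the COP1-SPA ubiquitin ligase and its CUL4 partners, which break down light-signalling factors, were mostly lower. Of 9 tested, 1 rose and 6 fell in both lines together, with a median of -0.22, where 28.1% of tested genes rose and 28.1% fell. SPA3 had 12.5 and 14.6 FPKM in line 5, 17.2, 15.1 and 20.2 FPKM in line 12, and 35.3, 32.2 and 32.9 FPKM in WT, and fell by 1.08 (limma adjusted p = 6.12e-05). COP1, the ligase subunit that binds target proteins, had 15.7 and 18.6 FPKM in line 5, 16.5 to 17.5 FPKM in line 12, and 26.3 to 29.0 FPKM in WT. COP1 fell by 0.66 (limma adjusted p = 0.000106) and SPA4 fell by 0.44 (limma adjusted p = 0.00457). COP10, a ubiquitin-conjugating enzyme variant, rose by 0.44 (limma adjusted p = 0.0011). SPA1, singled out after its values were seen, was lower in line 5 (-0.59, limma adjusted p = 0.00123), with -0.06 in line 12 (limma adjusted p = 0.508).

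Of 7 blue light receptor genes, 5 rose and 1 fell in both lines together, with a median of 0.30, where 28.1% of tested genes rose and 28.1% fell. CRY1, the main cryptochrome of seedling de-etiolation, had 103 and 98.5 FPKM in line 5, 96.6 to 108 FPKM in line 12, and 74.7 to 80.4 FPKM in WT, and rose by 0.39 (limma adjusted p = 0.000449). PHOT2, a phototropin of strong light, had 32.2 and 36.5 FPKM in line 5, 27.8 to 30.9 FPKM in line 12, and 59.6 to 62.9 FPKM in WT, and fell by 0.93 (limma adjusted p = 1.12e-05). PHOT1 rose by 0.42 (limma adjusted p = 0.012), a call lost without WT replicate 1 (0.36, limma adjusted p = 0.0514). FKF1, a receptor of day length, had 0.0621 and 0.0842 FPKM in line 5, 1.12, 1.53 and 1.18 FPKM in line 12, and 0.109, 0.0471 and 0 FPKM in WT. Its value for both lines together was 0.57 (limma adjusted p = 0.00298) and came from line 12, since in line 5 it was 0.03 (limma adjusted p = 0.875). FKF1 passed the filter only through the line 12 libraries, where it was high.

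The 20 other shade-responsive and PIF target genes moved in both directions. In both lines together 7 rose and 6 fell, with a median of 0.04, where 28.1% of tested genes rose and 28.1% fell. In line 5, 8 rose and 5 fell with a median of 0.34, where 22.2% and 22.3% of tested genes did. In line 12, 6 rose and 8 fell with a median of -0.21, where 28.3% and 27.7% did. Without line 5 replicate 1 the line 5 counts were 5 and 1, and the lower count was 3 without line 5 replicate 2, WT replicate 2 or WT replicate 3. Without the libraries above 2% ribosomal RNA, 3 rose in line 12. Those that rose included the auxin synthesis genes YUC9 (1.32, limma adjusted p = 0.000121) and YUC5 (1.21, limma adjusted p = 0.000277), ATHB4, a relative of ATHB2 (1.26, limma adjusted p = 0.000527), and ST2A, a sulfotransferase of hydroxyjasmonate (0.93, limma adjusted p = 0.000982). In WT, YUC9 and YUC5 were below 1 FPKM, so they passed the filter only through the RNAi libraries, where they were high. Among the 6 that fell, SAUR20 fell most (-0.85, limma adjusted p = 0.000902), followed by PAR2 (-0.55, limma adjusted p = 0.00252). Another auxin synthesis gene, YUC2 (-0.53, limma adjusted p = 0.000704), and KDR, listed as PRE6 (-0.41, limma adjusted p = 0.00307), were also among them. The ATHB2 relatives HAT2 (-0.50, limma adjusted p = 0.000825) and HAT1 (-0.35, limma adjusted p = 0.0308) fell too. YUC9 had 2.64 and 3.89 FPKM in line 5, 0.976, 1.26 and 0.739 FPKM in line 12, and 0.209, 0.0990 and 0.158 FPKM in WT. ATHB4 had 6.95 and 8.46 FPKM in line 5, 2.32, 3.40 and 1.65 FPKM in line 12, and 1.59, 1.04 and 1.17 FPKM in WT. Both had the order of ATHB2, with line 5 highest and WT lowest. The line 12 call of ATHB4 (0.59, limma adjusted p = 0.0309) was lost without line 12 replicate 1 (0.60, limma adjusted p = 0.0617), line 12 replicate 2 (0.40, limma adjusted p = 0.0727), WT replicate 2 (0.51, limma adjusted p = 0.0932) or WT replicate 3 (0.56, limma adjusted p = 0.0797).

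**Figure D4:**
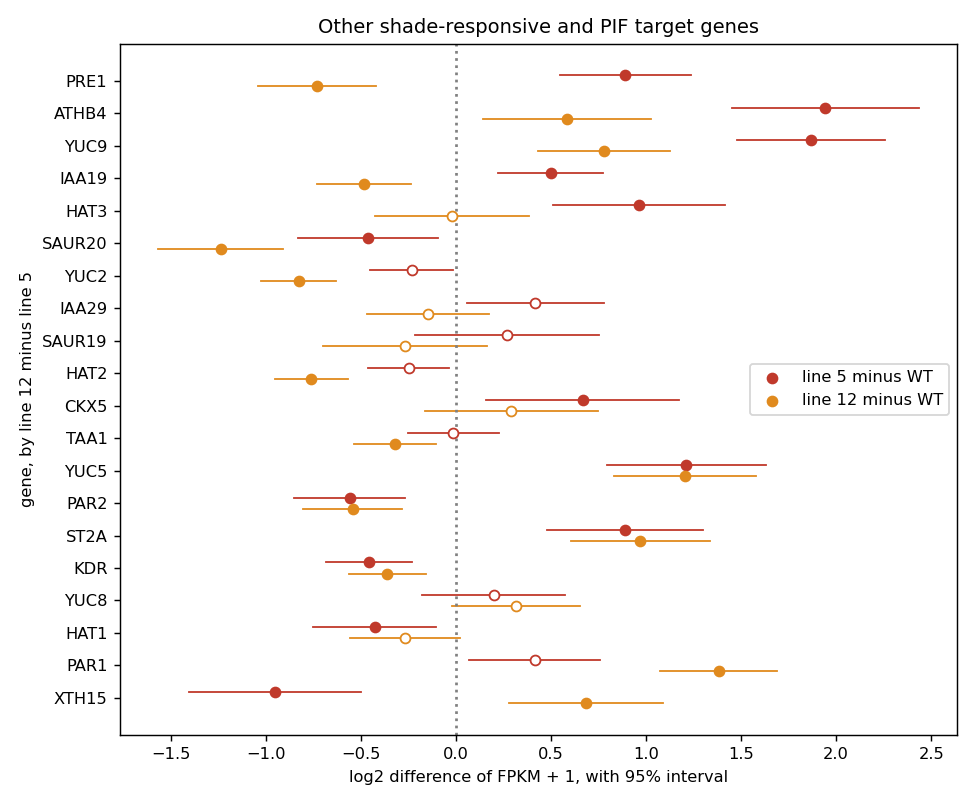
Log2 differences of FPKM + 1 with 95% intervals for 20 shade-responsive and PIF target genes, line 5 minus WT in red and line 12 minus WT in orange, ordered by line 12 minus line 5. Filled points passed limma's test at an adjusted p of 0.05. PRE1 lies at 0.89 in line 5 and -0.73 in line 12, and XTH15 at -0.95 in line 5 and 0.68 in line 12.

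Between the lines, 2 of these 20 genes were higher and 9 lower in line 12, with a median of -0.44, where 9.07% and 9.93% of tested genes were. The lower count was 5 without line 5 replicate 1 and 1 without the libraries above 2% ribosomal RNA. Some of them, singled out after their values were seen, moved in opposite directions in the 2 lines. PRE1, a small helix-loop-helix protein that promotes elongation, had 15.2 and 19.2 FPKM in line 5, 5.13, 5.71 and 3.95 FPKM in line 12, and 8.75, 8.08 and 9.51 FPKM in WT. Line 5 was above WT and line 12 below it, and the difference between the lines was -1.62 (SE 0.149, limma adjusted p = 0.000722). IAA19, an auxin-induced repressor of auxin response, had 12.4 and 12.2 FPKM in line 5, 5.19 to 6.42 FPKM in line 12, and 7.70 to 9.86 FPKM in WT. Its difference between the lines was -0.98 (limma adjusted p = 0.00192), and its line 5 call (0.50, limma adjusted p = 0.0112) was lost without line 5 replicate 1 (0.49, limma adjusted p = 0.0643). XTH15, a cell wall enzyme, went the other way, with 0.948 and 1.47 FPKM in line 5, 5.34 to 6.49 FPKM in line 12 and 2.26 to 3.84 FPKM in WT. Its difference between the lines was 1.63 (limma adjusted p = 0.00185), and its line 5 call (-0.95, limma adjusted p = 0.00582) was lost without line 5 replicate 1 (-0.78, limma adjusted p = 0.0527). HAT3, another relative of ATHB2, was higher than WT in line 5 (0.96, limma adjusted p = 0.00551), with 0.80 and no call without line 5 replicate 1 (limma adjusted p = 0.0513). Its relative HAT1 was lower than WT in line 5 (-0.43, limma adjusted p = 0.0392), and HAT2 was not called there (-0.25, limma adjusted p = 0.0608). PAR1, a helix-loop-helix inhibitor of PIFs, rose in line 12 (1.38, limma adjusted p = 9.4e-05), with 0.41 in line 5 (limma adjusted p = 0.0532). PAR2, a relative of PAR1, was lower than WT in line 5 (-0.56, limma adjusted p = 0.0089) and line 12 (-0.54, limma adjusted p = 0.00441). KDR, a relative of PRE1, was lower in line 5 (-0.46, limma adjusted p = 0.00689) and line 12 (-0.36, limma adjusted p = 0.00883). Without the libraries above 2% ribosomal RNA, PRE1 still passed between the lines, while IAA19 (-0.85, limma adjusted p = 0.106), XTH15 (1.94, limma adjusted p = 0.0598), HAT3 (-1.03, limma adjusted p = 0.0824) and PAR1 (1.3, limma adjusted p = 0.0548) did not.

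Clock genes that act on PIF4 and PIF5 also differed from WT. Of 9 tested, 4 rose and 3 fell in both lines together, with a median of 0.20, where 28.1% of tested genes rose and 28.1% fell. The morning gene LHY fell by 1.98 (limma adjusted p = 5.56e-06) and its partner CCA1 fell by 1.2 (limma adjusted p = 4.41e-05). PRR5 rose by 2.05 (limma adjusted p = 1e-05) and TOC1 rose by 1.50 (limma adjusted p = 6.03e-06). PRR5 had at most 0.73 FPKM in WT and so passed the filter only through the RNAi libraries, where it was high. ELF3, a subunit of the evening complex that represses PIF4 and PIF5, was singled out after its values were seen and rose by 0.76 (limma adjusted p = 2.88e-05). ELF3 had 8.90 and 8.76 FPKM in line 5, 14.5 to 15.8 FPKM in line 12, and 6.07 to 6.90 FPKM in WT, and the 3 groups did not overlap. The other subunits, ELF4 (0.20, limma adjusted p = 0.252) and LUX (0.18, limma adjusted p = 0.166), did not pass for both lines together. They passed in line 12 (0.45 and 0.34, limma adjusted p = 0.0366 and 0.0301) but not in line 5 (-0.05 and 0.01, limma adjusted p = 0.817 and 0.957). Whether the clock values have a part in the levels of PIF4 and PIF5 was not tested.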

How the data were processed

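RNA sequencing libraries had been built from 1.5 µg of total RNA with a TruSeq kit, per the labels' protocols. Per the submitters' processing notes, the tools were HISAT2 and StringTie and the genome build was TAIR10. No source used here states versions or a strand setting. The authors deposited 1 table of FPKM values for 32833 genes; no header names the unit, which was inferred from the values. Between 78.82% and 79.74% of low values (below 200 reads) were whole reads within 0.01 of a read once multiplied by gene length, so no counts were recovered from FPKM, and the implied reads are approximate. All 8 value columns were mapped to samples by their names.

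The test was limma 3.58.1 in R 4.3.3. It ran on log2(FPKM + 1), a scale that understates changes of low genes, over the 19395 genes that reached 1 FPKM in 2 or more libraries. The fit held 3 groups with an intensity trend, and p-values were adjusted by Benjamini-Hochberg over these genes with a threshold of 0.05. Both lines against WT is the mean of the line means less WT. A count-based test had been planned for counts, and the branch planned for FPKM was used. The procedure was tested on simulated data. Permutation tests, motif counts and figures used Python 3.11.15 with numpy 2.4.6, scipy 1.17.1, matplotlib 3.10.9 and pandas 2.3.3. Promoter windows were read from TAIR10.1, where 32548 gene identifiers were found and 32520 had the same start and end. The windows of 1000 and 3000 bases were chosen after the count for 250 bases was known. The upstream sequence of ATHB2 is not reported here.

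The 10 genes and the other gene lists were chosen with earlier results of these data known. The genes named were the 10, up to 4 called genes of each other list with the widest change for both lines together (or, with fewer than 2 called, its 2 most abundant), ABCE2, and the 3 genes most like each of the 3 widest-ranging members. Other names are said to be chosen after their values were seen, or are those of the lists that passed between the lines. PHYC, PHYD, PCHL, PYK10, COBL9, HAT1, PAR2, KDR, ELF4 and LUX are further list members, given beside named genes with their values known. Genes that overlap a member, and those that split the libraries as PHYB did, are named as well. Alternatives were 2 other scalings, no filter, a filter of 5 FPKM, a pseudocount of 0.1, a replicate block, only the groups compared, and leaving out libraries.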

Additional observations from a re-analysis of the deposited data

Results flagged for a closer look

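The results listed here are set apart because their response differed between the RNAi lines by limma's test of line 12 against line 5. They are the 32 genes of the members and the other lists that passed. Values are log2 differences, line 12 less line 5. Among the members they were HFR1 (-1.69), ATHB2 (-1.09), PIF4 (-0.40), PIF5 (-0.39) and PIF3 (0.73). Among other shade and PIF target genes they were PRE1 (-1.62), ATHB4 (-1.36), YUC9 (-1.09), HAT3 (-0.98), IAA19 (-0.98), SAUR20 (-0.78), YUC2 (-0.60), IAA29 (-0.57), HAT2 (-0.51), PAR1 (0.97) and XTH15 (1.63). Among light signalling genes they were LKP2 (-0.33), HMR (-0.31), PHYE (0.27), CRY2 (0.28), PPK1 (0.41), SPA1 (0.53), PCH1 (0.67), PIF6 (0.88) and FKF1 (1.08). Among clock genes they were LHY (-0.88), CCA1 (-0.54), ELF3 (0.72), PRR7 (0.996) and PRR5 (1.71), and among green tissue markers RCA (-0.38) and LHCB2.1 (-0.34). No group had the 4 libraries that a test for outlying libraries needs.

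Of these 32 calls, 19 were kept in each of the 8 settings that left out 1 library, and 13 were lost in at least 1. Most of the 19 were lost without the libraries above 2% ribosomal RNA, where each line keeps 1 library. Besides PIF4, PIF5, IAA19, XTH15 and PAR1, given above, these included ATHB4 (-1.26), PRR5 (1.40), ELF3 (0.77) and PCH1 (0.73). YUC2, YUC9, PPK1 and FKF1 lost their calls there too. Those of HMR and IAA29 were lost in 6 settings and that of PHYE in 5. SAUR20, HAT2, CRY2, LKP2 and LHCB2.1 lost theirs when either 1 of the line 5 libraries was left out. CCA1 lost it without line 5 replicate 2 (-0.32) or line 12 replicate 2 (-0.49), RCA without line 5 replicate 2 (-0.33), and PIF3 (0.50), PIF6 (0.72) and HAT3 (-0.82) without line 5 replicate 1. The causes were not tested.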

How the results depend on the processing

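Over 567 recomputed member results, 525 kept their direction and their side of the threshold, 28 lost a call and 7 gained one. The other 7 were values not called that changed sign: PHYB in line 12 (0.03 without the libraries above 2% ribosomal RNA and 0.06 without line 12 replicate 2), PIF3 in line 12 (0.003 rescaled and 0.01 without WT replicate 1) and, between the lines, PIF1 (-0.006 without line 5 replicate 2 and -0.002 without line 12 replicate 2) and PHYA (-0.05 without line 12 replicate 1). PHYA, PIF7 and ATHB2 kept their calls against WT under the alternatives run, with log2 values of 1.17 to 1.25 and 1.17 to 1.36 for PHYA in line 5 and line 12, -1.07 to -0.91 and -0.85 to -0.67 for PIF7, and 2.41 to 2.74 and 1.39 to 1.64 for ATHB2. HFR1 in line 5 (1.16 to 1.45) and against line 12 (-1.89 to -1.54 for line 12 less line 5) also kept its calls. The number of members called, leaving out 1 library at a time, was 6 to 9 in line 5, 4 to 5 in line 12, 5 to 7 for both lines and 4 to 5 between the lines. Over all genes these ranges were 5455 to 8800, 9376 to 10579, 9113 to 10716 and 1403 to 3607 genes, against 8645, 10856, 10884 and 3685 with all libraries.

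Without the 3 libraries above 2% ribosomal RNA, 7012 genes were called in line 12 and 431 between the lines, and 2 members were called between the lines; fewer libraries were then fitted. Replicate numbers did not pair the libraries: correlations of same-numbered libraries ran from -0.298 to 0.163. With the replicate number as a block, 3 members were called in line 12 (PHYA, PIF7 and ATHB2) and 1539 genes between the lines. Under the block PHYB passed in line 5 (-0.61, limma adjusted p = 0.0444), while PIF1 did not in line 5 (limma adjusted p = 0.0877) or line 12 (0.0648), nor PIF4 in line 12 (0.0634) or PIF3 between the lines (0.0697). Rescaling without ribosomal and organelle genes moved the share of higher genes among calls between the lines to 60.7%, against 47.8% as deposited. Of 1008 counts over the other lists, 895 stayed within 1.5 times, and 113 did not. The causes were not tested. For both lines against WT, the fit of only the groups compared is the same fit, so it was not run. Depth and the scale of FPKM + 1 limit what the values of PIL1 show, with 9 to 82 implied reads.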

Other observations

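The split of the PHYB values into 4 low libraries (line 5 replicates 1 and 2, line 12 replicate 2 and WT replicate 2) and 4 high ones crosses the groups, and its lowest high library was 1.61 times its highest low one. Among 19395 tested genes, 116 had the same 4 libraries below the other 4, and 4 of them by at least 1.5 times: AT4G32208, IKU1, PER2 and PHYB. The opposite order was found in 62 genes, 0 of them by at least 1.5 times. IKU1 (AT2G35230) had 2.35 and 1.50 FPKM in line 5, 10.4, 2.54 and 10.6 FPKM in line 12, and 6.92, 2.42 and 8.55 FPKM in WT. PER2 (AT1G05240), a peroxidase, had 0.634 and 1.08 FPKM in line 5, 3.98, 0.576 and 3.42 FPKM in line 12, and 4.49, 0 and 2.18 FPKM in WT. These libraries were picked by the values themselves, so no test was made.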
